A study of Mus musculus with 8 samples.

Results

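The interferon regulatory factors (IRFs) are a family of transcription factors, and 8 of their genes, Irf1, Irf2, Irf3, Irf4, Irf5, Irf7, Irf8 and Irf9, were followed here through early B lymphopoiesis. Their genes lie on chromosomes 6 (Irf5), 7 (Irf3 and Irf7), 8 (Irf2 and Irf8), 11 (Irf1), 13 (Irf4) and 14 (Irf9) of GRCm38, with Irf4 at chr13:30749233-30766981 and Irf8 at chr8:120736358-120756694. They were taken by gene symbol, matched to the Entrez identifiers of the count table, and are 8 of its 27179 genes. All 8 passed the filter on low counts in both fits.

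RNA was sequenced from sorted bone marrow B-cell progenitors of adult mice on a C57BL/6J background, with 2 libraries in each of 4 groups. Erg fl/fl mice, whose Erg alleles are floxed but intact and which carry no Rag1Cre, gave the control cells of 3 successive stages before a surface B-cell receptor appears: pre-proB, proB and preB. The fourth group, called Erg-deficient here, held pre-proB cells from mice of the genotype Rag1Cre T/+;Erg Δ/Δ, in which Cre expressed from the common lymphoid progenitor onward deletes both floxed Erg alleles. Cre and the loss of Erg, an ETS family transcription factor, therefore cannot be told apart in that group. The study reports B-lymphoid cell numbers without significant differences in Rag1Cre T/+ mice, but RNA of such mice is not among these libraries. The cells were sorted as B220+ and negative for IgM, IgD, NK1.1 and CD11c, and were divided by CD43 and CD24, among other surface markers. The study's methods give 2 mice of each genotype as the source, so libraries of different control stages can share an animal, and the labels, which number the libraries of a group as replicates, do not say which mouse gave which library. The fits of the stages treat these libraries as independent.

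All IRFs bind DNA through a related N-terminal domain that reads repeats of GAAA. Irf3, Irf5 and Irf7 are held in the cytoplasm until pattern recognition receptors switch them on, and then induce interferon genes. Irf9 joins STAT proteins, Stat2 among them, downstream of the type I interferon receptor, Irf1 is an interferon-induced activator, and Irf2 competes with Irf1 for the same sites. Irf4 and Irf8 are the lymphoid and myeloid pair. They bind poorly alone and mostly sit beside the ETS factors PU.1 (Spi1) and Spi-B (Spib), and in B-cell progenitors they act together in light chain gene activation and in the exit from the preB cycle. Irf8 is also required in dendritic cell lineages and is abundant in plasmacytoid dendritic cells, as is Irf7.

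Promoter sequences are shown for the 3 members whose windows held one of the motifs searched, so that they can be set against the stage profiles below. RefSeq starts on GRCm38.p6 gave 11 windows for the 8 members, each of 300 bases from 250 before to 50 after a start. Both strands were searched for an interferon-stimulated response element (ISRE, written here as GAAA, any 2 bases, GAAA), an ETS-IRF composite element (EICE, written as GGAA, any 2 bases, GAAA) and a gamma-activated site (GAS, TTCNNNGAA). Capitals mark the matches in the 250 bases upstream of the start, and no match lay in the 50 bases after it.
Irf1 (chr11:53769764-53770013, plus strand): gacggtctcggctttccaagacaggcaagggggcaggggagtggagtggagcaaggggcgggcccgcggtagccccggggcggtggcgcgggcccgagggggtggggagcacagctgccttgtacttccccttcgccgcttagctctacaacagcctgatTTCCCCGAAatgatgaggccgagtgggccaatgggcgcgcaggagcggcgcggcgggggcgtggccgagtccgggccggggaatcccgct
Irf2 (chr8:46739495-46739744, plus strand): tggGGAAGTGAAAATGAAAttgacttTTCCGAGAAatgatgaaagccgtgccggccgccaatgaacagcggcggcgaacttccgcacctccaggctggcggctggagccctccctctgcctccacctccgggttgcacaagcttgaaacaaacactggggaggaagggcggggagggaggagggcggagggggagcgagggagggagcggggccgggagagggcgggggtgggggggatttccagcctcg
Irf8 (chr8:120736108-120736357, plus strand): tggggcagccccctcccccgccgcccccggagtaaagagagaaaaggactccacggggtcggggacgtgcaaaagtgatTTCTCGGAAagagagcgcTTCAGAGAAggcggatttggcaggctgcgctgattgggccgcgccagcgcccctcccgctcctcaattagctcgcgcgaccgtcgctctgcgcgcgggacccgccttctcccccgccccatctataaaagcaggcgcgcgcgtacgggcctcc
Irf2 was the 1 member with an ISRE and the 1 member with an EICE, from -241 to -232 and from -247 to -238 relative to the start, and these 2 matches share 4 bases. A GAS stood in 3 members, in Irf1 from -90 to -82, in Irf2 from -224 to -216 and in Irf8 from -171 to -163 and again from -153 to -145. Of 27025 genes with such windows in the reference, 3.99% held the ISRE, 3.16% the EICE and 9.55% the GAS in at least 1 window. Irf3, Irf4, Irf5, Irf7 and Irf9 had none of these letters in their windows. A match of letters is a description of the window and shows no binding.

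Libraries held between 15565381 and 18457632 counts. At that depth 3 counts correspond to between 0.163 and 0.193 CPM (counts scaled to library size), and every library of the 8 members was above this level. Erg, the deleted gene, was at 69.8 and 25.1 CPM in the control and 2.49 and 2.58 CPM in the Erg-deficient pre-proB libraries, and was lower in Erg-deficient than in control pre-proB cells by a log2 fold change of -4.23 (SE 0.547, adjusted p = 0.0250). The pre-proB libraries of both genotypes carried high levels of genes known from plasmacytoid dendritic cells, beside those of B progenitors. The summed level of 12 such markers, among them Siglech and Ccr9, was 12572 and 13272 CPM in the control pre-proB libraries and 14560 and 14600 CPM in the Erg-deficient ones, against 391 and 431 CPM at the proB stage and 284 and 294 CPM at the preB stage. The summed level of 12 B progenitor markers ran 2934 and 1913, then 5515 and 5326, then 6308 and 6706 CPM in the same control groups, and was 1329 and 1512 CPM in Erg-deficient pre-proB. Ebf1 and Pax5, which set B-lineage commitment, were at 40.4 and 17.4 CPM in control and 0.475 and 0.25 CPM in Erg-deficient pre-proB cells. No measurement here separates cell types within a library, and in bulk RNA fewer cells of a type and less RNA per cell cannot be told apart. Each result on pre-proB cells below rests on these libraries.

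The family went from a population dominated by Irf8 in pre-proB cells to one led by Irf4 in proB and preB cells. On the FPKM scale, CPM per kilobase of exon, which allows genes to be compared, the 8 genes summed to 1467 and 1656 in the control pre-proB libraries, dropped to 338 and 343 at the proB stage, and stood at 491 and 514 at the preB stage. The Erg-deficient libraries summed to 1783 and 1750. Irf8 made up 69.0 and 69.5% of that sum in control pre-proB cells, but 16.99 and 18.1% at the proB stage and 11.8 and 12.0% at the preB stage. Erg-deficient pre-proB cells were at 68.1 and 72.4%, on either side of the controls. The FPKM of Irf8 was 64.9 and 94.5 times that of Irf4 in the control pre-proB libraries. At the proB stage it was 0.549 and 0.633 times, at the preB stage 0.307 and 0.345 times, and in the Erg-deficient libraries 145 and 132 times that of Irf4. The ranges of the ratio did not overlap between groups, although the control pre-proB libraries differed from each other by a larger fold than separated the nearer of them from the Erg-deficient libraries.

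**Figure D1:**
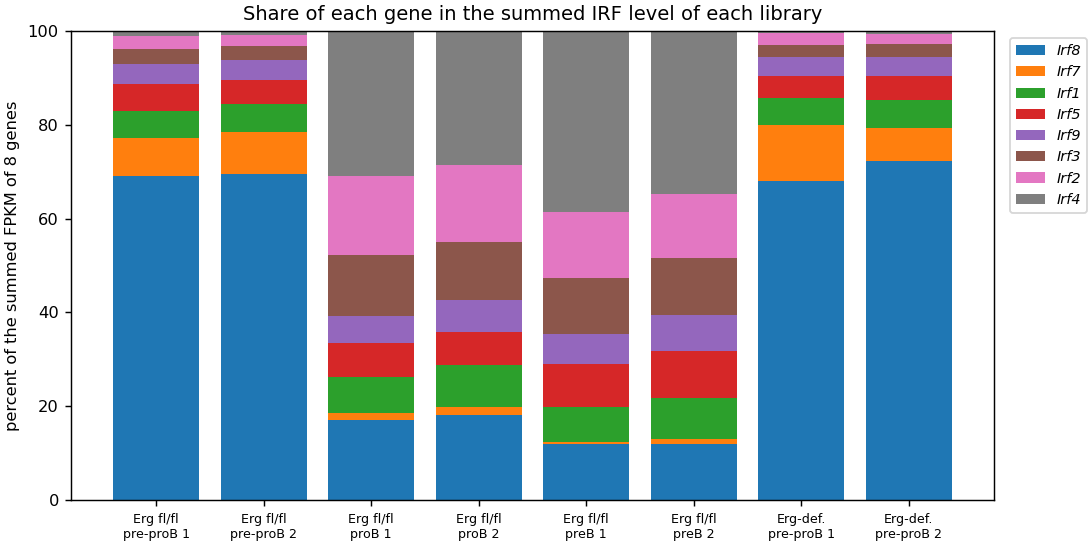
Stacked bars give each gene's percent of the summed FPKM of the 8 IRF genes (y axis, 0 to 100) in each of the 8 libraries (x axis). Irf8 fills 69.0 and 69.5% of the control pre-proB bars and 11.8 and 12.0% of the preB bars, where Irf4 is the largest block.

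In control pre-proB cells the order by FPKM was Irf8 (1081 ± 97.1, SD, n = 2), Irf7 (135 ± 22.5), Irf1 (90.6 ± 9.38), Irf5 (85.2 ± 0.466), Irf9 (66.7 ± 5.94), Irf3 (48.5 ± 0.995), Irf2 (39.8 ± 0.302) and Irf4 (13.9 ± 2.43). Only the neighbours Irf1 and Irf5 overlapped between libraries. Irf8 ranked 24 by FPKM among all 20451 genes with a length in these cells and 21 in Erg-deficient pre-proB cells. In proB cells Irf4 came first at 101 ± 4.72 FPKM (SD, n = 2), before Irf8 at 59.7 ± 3.26 and Irf2 at 56.9 ± 0.228, and Irf7 came last at 5.70 ± 0.779. No neighbours in that order overlapped. In preB cells Irf4 reached 184 ± 7.57 FPKM (SD, n = 2) and rank 263 among all genes, followed by Irf2 at 69.2 ± 0.748, while Irf3 (60.4 ± 2.56) and Irf8 (60.0 ± 2.49) overlapped, as did Irf5 with Irf1 and Irf1 with Irf9. The order in Erg-deficient pre-proB cells was that of the controls, from Irf8 at 1240 ± 37.5 to Irf4 at 9.01 ± 0.866 FPKM (SD, n = 2), with no overlap between neighbours. Irf8 remained first in both pre-proB groups and Irf4 first in proB and preB cells on every length scale tried, whereas the places between them changed with the gene length used.

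**Figure D2:**
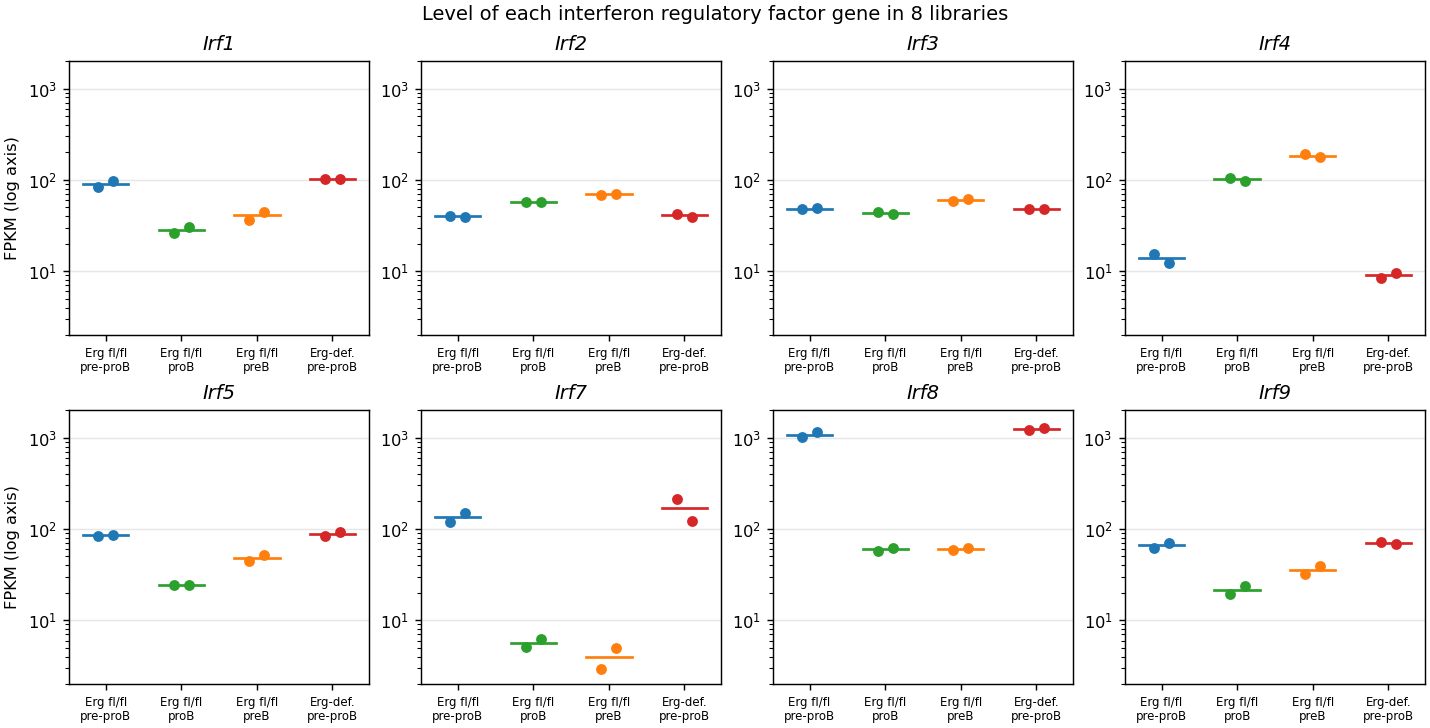
Points are the FPKM of single libraries and bars the mean of 2 libraries, on a log y axis, for each of the 8 genes in the 4 groups. Irf4 climbs from 13.9 to 184 FPKM from control pre-proB to preB cells, Irf7 and Irf8 drop by more than any other member between pre-proB and proB cells, and the means of Irf2 and Irf3 stay between 39.8 and 69.2 FPKM.

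The first stage comparison asked how the genes change when pre-proB cells become proB cells. Of the 8 members 7 passed the test, 2 higher in proB cells (Irf2 and Irf4) and 5 lower (Irf1, Irf5, Irf7, Irf8 and Irf9), and Irf3 did not. Calls were very common in this comparison: 73.0% of all 13650 genes tested were called, 36.2% higher and 36.8% lower, so that 7 of 8 is near the background share. The members' median absolute log2 fold change was 1.73 against 0.69 over all genes tested, and their median signed change was -1.64 against 0.00. From proB to preB cells 6 members rose (Irf1, Irf2, Irf3, Irf4, Irf5 and Irf9), none fell past the test, and Irf7 and Irf8 did not pass, where 58.9% of all genes were called, 29.0% higher and 29.9% lower. The 6 of 8 called higher compare with that 29.0%. The median change of the members in that step was 0.55 on the log2 scale, against 0.00 over all genes. Over both steps, preB against pre-proB, all 8 were called, 3 higher (Irf2, Irf3 and Irf4) and 5 lower, beside 70.7% of all genes, 36.5% higher and 34.1% lower. These comparisons share libraries and are not independent of each other.

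**Figure D3:**
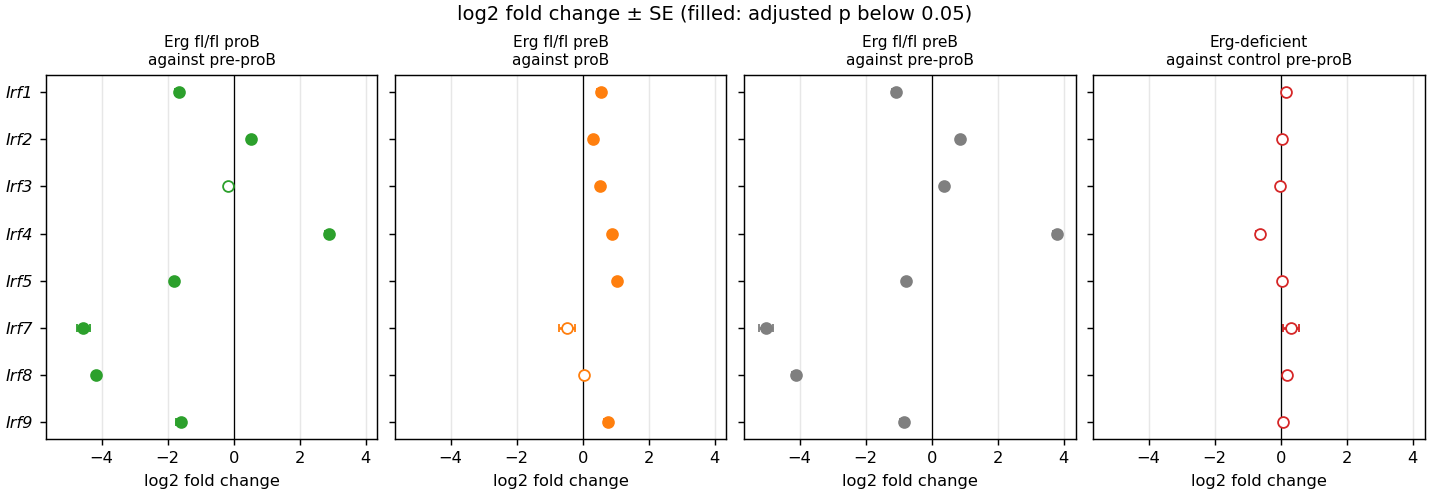
Points are log2 fold changes with their SE (x axis) for each gene (rows) in the 4 comparisons (panels), filled where the adjusted p was below 0.05. Irf4 stands apart to the right and Irf7 and Irf8 to the left in the 2 comparisons with control pre-proB cells, and every point of the genotype panel is open and near 0, with Irf4 the farthest at -0.63.

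Irf4, which in B cells acts in preB-cell differentiation and later in plasma cell formation, was the member that rose most. The control pre-proB libraries held 74.4 and 58.0 CPM of it, the proB libraries 498 and 467 CPM and the preB libraries 904 and 853 CPM. No library of a stage overlapped with the next. The rise was 7.40-fold from pre-proB to proB (log2 fold change 2.89, SE 0.111, adjusted p = 7.43e-08) and a further 1.87-fold to preB (0.90, SE 0.101, adjusted p = 0.000124). Plasma cells also hold much Irf4 RNA, and plasma cell markers were present in some libraries. Their summed level over 10 genes, among them Jchain and Igha, was 1209 and 1309 CPM at the pre-proB stage, 1192 and 1350 CPM at the proB stage and 313 and 339 CPM at the preB stage. Within that list the genes differed. Jchain went from 101 through 208 to 4.55, Igha from 245 through 603 to 7.83 and Ighg3 from 220 through 48.3 to 1.64 CPM. Xbp1 went from 446 through 69.3 to 82.0 CPM and Mzb1 from 107 through 212 to 173 CPM. Prdm1, which drives plasma cell differentiation, rose at both steps, from 1.45 through 3.25 to 6.79 CPM. It is also among the targets of Irf4 and Irf8 counted below. From proB to preB 6 of the 10 were called lower and 2 higher, beside 29.9% and 29.0% of all genes. The part of plasma cells in the level of Irf4 was not tested.

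Irf8, which directs dendritic and myeloid fates and in B cells works with PU.1, was the most abundant member in pre-proB cells. It measured 3479 and 3950 CPM there, against 197 and 213 CPM at the proB stage and 199.9 and 212 CPM at the preB stage. The pre-proB libraries lay far above the others, and the proB and preB ranges overlapped. Irf8 was 17.9-fold lower in proB than in pre-proB cells (log2 fold change -4.16, SE 0.105, adjusted p = 9.72e-09). Between proB and preB it differed by 0.04 (SE 0.0940, adjusted p = 0.716), with a sign that turned under other settings. The 12 plasmacytoid dendritic-like markers fell with it. All 12 were called lower in proB cells, and their summed level was 31.4 times higher in pre-proB than in proB cells. Of 9 conventional dendritic-like markers 8 could be tested and all 8 were lower, with sums of 1886 and 2060 CPM at the pre-proB and 135 and 153 CPM at the proB stage, and their members were uneven in pre-proB cells. The means of Clec9a and Cd209a were 235 and 157 CPM there, and those of Xcr1, Zbtb46 and Batf3 were 0.924, 1.70 and 0.401 CPM. Itgax, which encodes the CD11c excluded in the sort, was at 365 CPM there and 4.16 CPM in proB cells. The part of dendritic-like cells in the level of Irf8 was not tested.

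Irf7, the interferon-inducible factor that drives interferon alpha genes, had the largest change of the 8 members after the pre-proB stage. The pre-proB libraries held 286 and 362 CPM, the proB libraries 12.3 and 15.0 CPM and the preB libraries 7.07 and 12.0 CPM of Irf7. The pre-proB values were apart from all others, whereas 12.0 in 1 preB library came close to 12.3 in 1 proB library. Irf7 was 23.4-fold lower in proB than in pre-proB cells (log2 fold change -4.55, SE 0.202, adjusted p = 1.76e-07), and its difference between preB and proB was -0.48 (SE 0.247, adjusted p = 0.126). It was called in 2 of 17 other settings, at an adjusted p of 0.0107 with the replicate number as a block and 0.0230 without the second preB library, and adjusted p-values reached up to 0.627. The plasmacytoid dendritic-like sum fell with Irf7 in the first step and was in preB cells 0.704 times its proB level. Its part in the level of Irf7 was not tested.

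**Figure D4:**
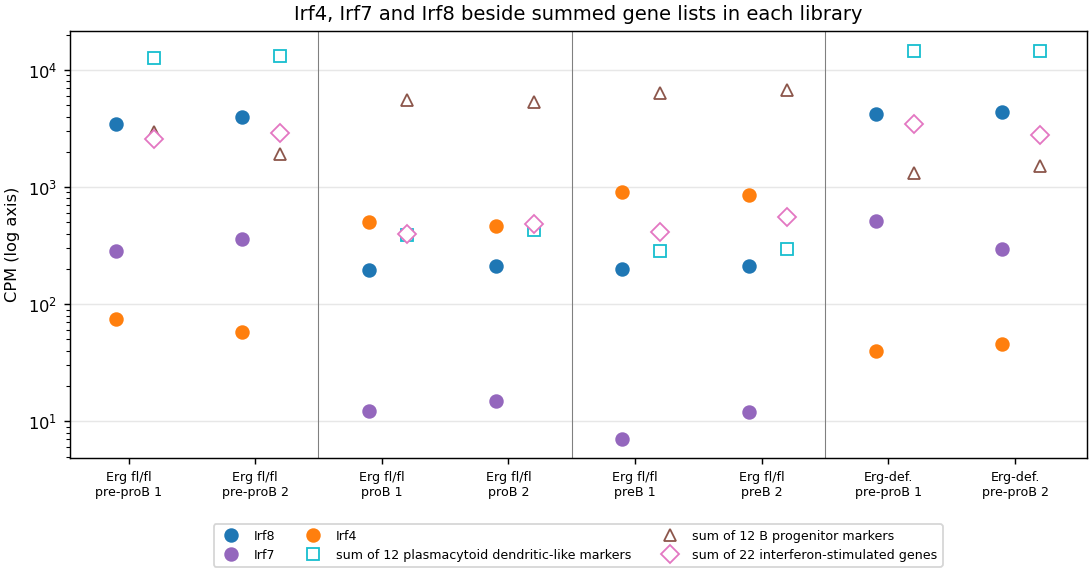
Filled points give the CPM of Irf4, Irf7 and Irf8, and open symbols the summed CPM of 12 plasmacytoid dendritic-like markers, 12 B progenitor markers and 22 interferon-stimulated genes, on a log y axis for each library. Irf7, Irf8, the dendritic-like sum and the interferon-stimulated sum are all higher in the 4 pre-proB libraries than in the 4 others, and Irf4 and the B progenitor sum are lower there.

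Irf1, Irf5 and Irf9 shared a profile with a dip at the proB stage. Irf1 measured 280 and 324 CPM at the pre-proB stage, 87.8 and 101 CPM at the proB stage and 123 and 150 CPM at the preB stage. The stages did not overlap, and Irf1 fell 3.17-fold (log2 fold change -1.66, SE 0.121, adjusted p = 3.35e-06) and then rose 1.48-fold (0.57, SE 0.121, adjusted p = 0.00390). Irf9, the DNA-binding subunit of the interferon-activated ISGF3 complex, stood at 194 and 220, then 60.5 and 73.6, then 100.2 and 122 CPM. It fell 3.05-fold (adjusted p = 4.87e-06) and rose 1.70-fold (adjusted p = 0.000980), again without overlap between stages. Irf5, which acts downstream of endosomal Toll-like receptors, went from 225 and 226 CPM through 63.8 and 63.9 CPM to 117 and 138 CPM over the same stages. It fell 3.49-fold (log2 fold change -1.80, SE 0.0839, adjusted p = 2.21e-07) and rose 2.05-fold (1.04, SE 0.0838, adjusted p = 2.32e-05). The Irf5 locus overlaps Tnpo3, which is also in the count table, and the sources used here do not say how reads in the overlap were counted.

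Irf2 and Irf3 moved least. Irf2, a repressor of interferon responses at the sites Irf1 activates, rose at each step, from 99.8 and 98.7 CPM through 142 and 142 CPM to 172 and 174 CPM. The log2 fold changes were 0.53 (SE 0.0552, adjusted p = 2.96e-05) and 0.32 (SE 0.0541, adjusted p = 0.00116), small in size but with libraries of a stage within 1.02-fold of each other. The constitutive Irf3 was at 97.1 and 99.96 CPM, then 89.3 and 85.5 CPM, then 119 and 126 CPM over the 3 stages. Its first difference, -0.16 (SE 0.0629), missed the threshold at an adjusted p of 0.0504 and passed it under 9 of 17 other settings, with adjusted p-values from 0.0165 to 0.152. Its rise to preB was 0.53 (SE 0.0623, adjusted p = 0.000163). Set side by side per length, Irf1 and Irf2 changed places, from 90.6 and 39.8 FPKM in pre-proB cells to 28.3 and 56.9 FPKM in proB and 40.9 and 69.2 FPKM in preB cells.

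The likeness of members was measured as the root mean square difference of their log2(CPM + 1) values, centred on each gene's mean over the 8 libraries. It describes 8 libraries of 4 groups and carries no test. Irf1 and Irf9 were the closest pair (0.126), followed by Irf5 and Irf9 (0.134) and Irf1 and Irf5 (0.202). Irf7 and Irf8 differed by 0.438, and the least alike were Irf4 with Irf7 (4.28) and Irf4 with Irf8 (3.95). Among 9214 genes with a mean of at least 10 CPM, those most like Irf4 were Bach2 (0.104), Bcl2l1 (0.105) and Ltk (0.201). Bach2 ran from 92.4 CPM through 623 to 1186 CPM over the control stages, and stood at 55.4 CPM in Erg-deficient pre-proB cells. Those most like Irf8 were Pmepa1 (0.0608), Plxnc1 (0.0845) and Ctsb (0.0887). Irf7 was closest to Slc2a6 (0.165), Gm5086 and D13Ertd608e, and Irf1 to 5430427O19Rik (0.0706), H2-M3 and Ostm1. Irf5 was closest to Slc15a4 (0.0688), Rgs14 and Mknk1, and Irf9 to Tapbpl (0.0875), Napsa and Prkcd. The nearest genes to Irf2 were Ino80b (0.0344), Sirt1 and Vars, and those to Irf3 Rbm39 (0.0331), Adprm and Lrrc57.

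The pathway around the factors was followed through lists of named genes. Interferon ligands were hardly transcribed: the 9 ligand genes in the list, among them Ifnb1, Ifna4 and Ifng, summed to between 0.0575 and 0.560 CPM in the Erg fl/fl libraries, and none passed the filter in the stage fit. The counts below stand beside 36.2% of all genes called higher and 36.8% lower in proB against pre-proB cells, and 29.0% higher and 29.9% lower in preB against proB cells, so that the number of calls in a list, both directions together, is often near the background. Of 9 interferon receptor chains, Janus kinases and STATs 6 were lower in proB than in pre-proB cells, 1 was higher and 2 did not pass. Ifnar1 and Ifnar2, the type I interferon receptor chains, fell from 506 to 104 and from 407 to 64.3 CPM. Stat2, a partner of Irf9, fell from 569 to 75.4 CPM (log2 fold change -2.90, adjusted p = 1.41e-08), while Ifngr1 rose from 52.4 to 60.1 CPM. From proB to preB 6 of the 9 rose and Ifnar2 fell. Ifngr1 and Ifngr2, the interferon gamma receptor chains, were higher in preB than in pre-proB cells, by log2 fold changes of 0.38 (adjusted p = 0.00119) and 0.26 (adjusted p = 0.00948).

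Of 16 sensors, adaptors and kinases that activate Irf3, Irf5 and Irf7, 12 were lower in proB than in pre-proB cells, 2 were higher and 2 did not pass. The largest falls were those of the endosomal nucleic acid receptors Tlr7, from 343 to 9.38 CPM, and Tlr9, from 269 to 23.3 CPM, both of which are also on the plasmacytoid dendritic-like list. Sting1, the adaptor of cytosolic DNA sensing, fell from 257 to 58.6 CPM, and Myd88, the adaptor of Tlr7 and Tlr9, from 100.5 to 36.5 CPM. Rigi, a cytosolic RNA sensor, went the other way, from 17.9 to 51.4 and then 144 CPM in preB cells, with log2 fold changes of 1.55 (adjusted p = 5.04e-06) and 1.53 (adjusted p = 1.11e-05). From proB to preB 11 of the 16 rose, 4 fell and 1 did not pass.

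Interferon-stimulated genes, the targets of the Irf9 complex and of Irf1 and Irf7, were mostly lower after the pre-proB stage. Of 22 such genes 15 were lower in proB than in pre-proB cells, 3 were higher and 4 did not pass, with a median log2 fold change of -1.37 against 0.00 over all genes. Their summed level was 2562 and 2909 CPM at the pre-proB stage, 395 and 483 CPM at the proB stage and 415 and 552 CPM at the preB stage. Bst2, also a plasmacytoid dendritic-like marker, fell from 1390 to 43.7 CPM and Trim30a from 635 to 127 CPM, while Oas1a rose from 7.00 to 13.1 CPM. From proB to preB 7 rose, 5 fell and 10 did not pass.

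The partners and targets of Irf4 and Irf8 were counted in the same way. Of 8 genes whose products bind DNA with Irf4 or Irf8, 7 could be tested. Between pre-proB and proB 3 were higher, 2 lower and 2 did not pass, and from proB to preB 5 were higher and none was called lower. Spib went from 1347 to 760 and then 2353 CPM, Spi1 from 50.9 to 54.8 and then 84.9 CPM. Tcf3 went from 216 to 839 and then 1157 CPM, and Batf, the AP-1 partner of Irf4, from 11.2 to 2.29 and then 3.14 CPM. Of 10 genes known as targets of Irf4 and Irf8 in B cells, 8 rose from pre-proB to proB, 1 fell and 1 did not pass, and 8, Ciita now among them, rose from proB to preB while Bcl6 and Blnk did not pass. Ikzf3, which encodes Aiolos, rose from 18.4 to 201 and then 516 CPM, and Igkc from 317 to 614 and then 1070 CPM. Ciita, the class II transactivator, was the one that fell in the first step, from 85.8 to 21.3 CPM, and it is also a dendritic-like marker. Ikzf1, Ikzf3 and Bcl6 stand on both lists. Of the 3 genes for Irf2 binding proteins, Irf2bp1 and Irf2bpl rose and Irf2bp2 fell from 360 to 88.0 CPM between pre-proB and proB cells.

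**Figure D5:**
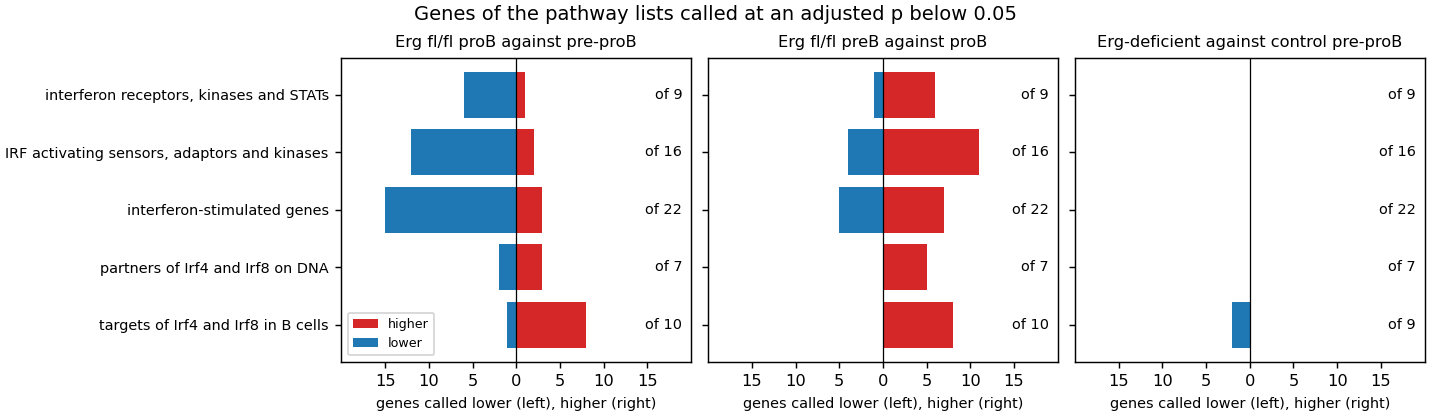
Bars count the genes of each pathway list (rows) called lower (left) or higher (right) at an adjusted p below 0.05, beside the number tested, in 3 comparisons (panels). Between pre-proB and proB cells 15 of 22 interferon-stimulated genes were lower and 8 of 10 targets of Irf4 and Irf8 were higher, and in the genotype comparison 2 of 9 targets were lower.

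The genotype comparison asked whether the family differs between Erg-deficient and control pre-proB cells. By edgeR none of the 8 members was called, and 1, Irf4, had an unadjusted p below 0.05. DESeq2 called 1 member, Irf4, and limma-voom none. The study, which also used edgeR, names Irf4, along with Tcf3 and Bach2, among the deregulated transcription factors of Erg-deficient pre-proB cells. The edgeR fit here did not reach its threshold for Irf4. In the background 151 of 13005 genes were called, 1.16% of those tested, 0.215% higher and 0.946% lower. The members' median absolute log2 fold change was 0.12 against 0.11 over all genes tested.

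Irf4 stood at 40.0 and 45.8 CPM in the Erg-deficient libraries, both below the 74.4 and 58.0 CPM of the controls. The log2 fold change was -0.63 (SE 0.131, unadjusted p = 0.00216, adjusted p = 0.0869 by edgeR). Over 15 other settings it ranged from -0.81 to -0.44, with adjusted p-values from 0.00279 to 0.331, and it was called in 3 of them. It was -0.81 without the second control library, the one with less Irf4, and was then called. The B progenitor markers followed the same order of libraries, with sums of 2934 and 1913 CPM in the controls against 1329 and 1512 CPM, and 8 of the 12 were called lower. Plasma cell-like markers summed to 1209 and 1309 against 641 and 878 CPM. Of these, Xbp1 was at 446 CPM in control and 510 CPM in Erg-deficient cells. In the same order Igha was at 245 and 73.1 CPM, Ighg3 at 220 and 0.190 CPM and Jchain at 101 and 25.7 CPM. The Erg-deficient libraries of Igha stood at 7.58 and 139 CPM. By edgeR 2 of 9 plasma cell-like markers tested were called lower, beside 0.946% of all genes. The part of B progenitors and plasma cells in the difference of Irf4 was not tested. Bach2, picked as the gene most like Irf4 over the 8 libraries, stood at 92.4 CPM in the controls and 55.4 CPM in the Erg-deficient cells. The pre-proB libraries were part of that choice, so a similar difference follows from it and adds no separate evidence on Irf4.

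The 7 other members lay between -0.03 and 0.31 on the log2 scale, with SEs from 0.0592 to 0.241. Irf8 measured 4170 and 4352 CPM in the Erg-deficient libraries, above the 3479 and 3950 CPM of the controls without overlap (0.19, SE 0.0945, adjusted p = 0.469). The summed plasmacytoid dendritic-like markers were 1.13 times their control level in the same libraries, and their part in the level of Irf8 was not tested here either. Irf1 stood at 339 and 340 CPM, also above both controls (0.16, SE 0.0818, adjusted p = 0.478). Irf2 (106 and 99.0 CPM), Irf3 (97.1 and 96.7 CPM), Irf5 (222 and 243 CPM) and Irf9 (223 and 215 CPM) differed from the controls by less than 0.08 on the log2 scale. A p that misses the threshold with 2 libraries a group does not show that the levels are equal.

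Irf7 was the member that varied most between replicates. Its Erg-deficient libraries stood at 510 and 295 CPM, 1.73-fold apart and on either side of the control library at 362 CPM, with the other control library at 286 CPM, and the log2 fold change of 0.31 (SE 0.241, adjusted p = 0.652) carried the largest SE of the family. The summed interferon-stimulated genes followed the same order across the 4 pre-proB libraries, 2562 and 2909 CPM in the controls and 3438 and 2784 CPM in the Erg-deficient cells. Bst2, also a plasmacytoid dendritic-like marker, held 1344 and 1437 CPM of the control sums and 1529 and 1600 CPM of the Erg-deficient ones. Within the Erg-deficient pair it had the opposite order to Irf7. Without Bst2 the sum was lowest in the second Erg-deficient library, so the order shared with Irf7 depends on Bst2. The T-like markers summed to 1503 and 886 CPM in the Erg-deficient pair, of which Cd4 alone held 1207 and 622 CPM, while Cd3g, at 4.72 and 5.99 CPM, and Cd3d, at 5.65 and 6.31 CPM, had the opposite order. By edgeR none of the 22 interferon-stimulated genes was called between genotypes, 2 had an unadjusted p below 0.05, and DESeq2 and limma-voom called none. None of the 9 receptors, kinases and STATs and none of the 16 sensors, adaptors and kinases was called by any of the 3 tools, with 2 and 1 genes at an unadjusted p below 0.05. Interferon ligands summed to 1.80 and 0.901 CPM in the Erg-deficient libraries against 0.518 and 0.482 CPM in the controls, and Ifng, the 1 ligand tested, was not called (log2 fold change 2.38, adjusted p = 0.170). NK-like markers, of cells known to make interferon gamma, were higher, with sums of 118 and 203 against 33.3 and 39.8 CPM and 6 of 10 called higher, in cells sorted as negative for NK1.1. Their part in the level of Ifng was not tested.

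Among the partners of Irf4 and Irf8 none of 7 was called by edgeR or limma-voom, 1 was at an unadjusted p below 0.05 and DESeq2 called 1. Tcf3 differed most, at 150 CPM in Erg-deficient against 216 CPM in control pre-proB cells. Its log2 fold change was -0.53 (SE 0.111, adjusted p = 0.0869 by edgeR). The study names Tcf3 among the deregulated factors and elsewhere describes its expression as maintained. Spi1 and Spib were at 54.9 and 1435 CPM in Erg-deficient against 50.9 and 1347 CPM in control pre-proB cells. Of 9 targets tested 2 were lower, both light chain constant genes. Igkc stood at 103 against 317 CPM (log2 fold change -1.62, adjusted p = 0.00296) and Iglc1 at 4.31 against 19.8 CPM (-2.20, adjusted p = 0.0303). Ikzf3 was at 17.2 against 18.4 CPM, a difference of -0.10 that did not pass, and among the Irf2 binding proteins none of 3 was called by edgeR or limma-voom and 1 by DESeq2.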

How the data were processed

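RNA of 8 libraries (RNeasy extraction, mRNA libraries, paired-end HiSeq reads) was measured. As the study's methods and the submitters' processing notes state, the authors made base calls with CASAVA 1.8.2, trimmed with Trim Galore, aligned to mm10 (GRCm38) with STAR, counted reads over Entrez genes (Rsubread's annotation) with featureCounts, and deposited whole-number counts without normalization. Not given in the sources used here: the STAR version, strand use and the treatment of multi-mapping reads.

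Libraries were grouped by their labels. Symbols came from RefSeq for 25275 of 27179 identifiers and from GENCODE M21 for 17, and 1887 identifiers without a symbol stayed in the tests. Differences and p-values (two-sided) came from edgeR 4.0.16 in R 4.3.3 (legacy quasi-likelihood, TMM), in 1 fit of the 6 Erg fl/fl libraries and 1 of the 4 pre-proB libraries. Genes needed 0.5 CPM in at least 2 libraries, p-values were adjusted by Benjamini-Hochberg over all genes kept, and a gene was called below 0.05. The SE is the log2 fold change over the square root of F. CPM used TMM factors over 8 libraries. FPKM is that CPM per kilobase of GENCODE M21 exons of RefSeq-matched transcripts, for 20451 genes. Replicate pairs differed by 4.01 to 8.75 times counting noise (chi-square per degree of freedom), so no library was a copy of another. With 2 libraries a group, p-values measure the spread between these samples, which may in part be technical, and a limit from 3 counts covers only counting error.

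The members and lists were chosen with earlier results of these data known. The rule names the 8 members, the genes of the pathway and marker lists (a few results are not reported here), Erg, and for each member the 3 genes with the smallest root mean square difference to it. The lists cover interferon ligands, receptors with kinases and STATs, sensors with adaptors and kinases, interferon-stimulated genes, Irf4 and Irf8 partners and targets, Irf2 binding proteins, proliferation genes, and markers of B progenitor, plasmacytoid and conventional dendritic-like, myeloid-like, NK-like, T-like, erythroid-like, plasma cell-like and mature B-like cells. Alternatives were other size factors, total counts, immunoglobulin genes left out, other filters, DESeq2 1.42.0, limma-voom (limma 3.58.1), edgeR's version 4 or robust estimation, all 8 libraries together, the replicate block, each library left out and other gene lengths. The procedure was tested on simulated data. Python 3.11.15 with matplotlib 3.10.9 drew the figures.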

Additional observations from a re-analysis of the deposited data

How the results depend on the processing

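The numbers of members called were 7 to 8 in proB against pre-proB, 6 to 7 in preB against proB and 8 in preB against pre-proB over 17 alternatives each. In Erg-deficient against control pre-proB cells 0 members were called, and 1 (Irf4) with all 8 libraries in one fit and by DESeq2. When each library was left out in turn that number was 0 to 1, with 1 when control replicate 2 was absent. Such a fit takes the spread of the remaining single library from the other groups. The number of all genes called in that comparison was 151, and it was 41 by limma-voom, 400 by DESeq2, 442 with all 8 libraries, 279 without a filter, 265 with the replicate block, 88 with edgeR's version 4 estimation, and 10 to 401 with a library left out. Signs turned only for small changes that no setting called. Between genotypes the log2 fold changes with a library left out were -0.011 to 0.092 for Irf2, -0.025 to 0.10 for Irf5, -0.14 to 0.65 for Irf7 and -0.014 to 0.16 for Irf9. In preB against proB that of Irf8 was -0.0058 with a filter of 1 CPM, -0.016 with total counts, and -0.042 to 0.089 with a library left out. Irf7 in preB against proB was called in 2 of 17 alternatives. The causes were not tested.

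Shares of the summed member level depend on the gene length by construction. By CPM without division by length, Irf8 made up 73.7% in control pre-proB, 11.7% in preB and 74.8% in Erg-deficient pre-proB, and Irf4 1.33, 41.7, 49.8 and 0.754% in control pre-proB, proB, preB and Erg-deficient pre-proB. With the length of all annotated exons, a choice added after the data were seen, Irf8 made up 61.2, 12.4, 7.91 and 62.4% and Irf4 1.59, 42.1, 48.6 and 0.906% in the same order. The main shares were 69.2, 17.5, 11.9 and 70.2% for Irf8 and 0.900, 29.7, 36.7 and 0.510% for Irf4.

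The sources do not tie replicate numbers to mice, and the numbers were not taken as pairs. Deviations from the group means correlated at 0.193 for pre-proB with proB, 0.033 for pre-proB with preB, 0.096 for proB with preB and 0.001 for the 2 genotypes. With the replicate block 8, 7, 8 and 0 members were called in proB against pre-proB, preB against proB, preB against pre-proB and between genotypes. Irf3 in the first and Irf7 in the second were the calls that the block added.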

Other observations

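Marker lists not described above are given as values. The 10 proliferation genes, among them Mki67 and Top2a, were all called higher in proB than in pre-proB cells and all lower in preB than in proB cells, with sums of 1279 and 1419, 6157 and 5997, and 4486 and 3713 CPM over the 3 control stages and 1278 and 1311 CPM in Erg-deficient pre-proB cells. The step from proB to preB, in which 6 IRF genes rose, was thus one in which the proliferation genes fell. The 12 myeloid-like markers summed to 242 and 190, 195 and 466, 94.5 and 66.0, and 142 and 113 CPM in the same groups, the last pair being Erg-deficient pre-proB, and the proB libraries differed most. The 6 erythroid-like markers stayed between 1.94 and 14.2 CPM in sum in every library. The 8 mature B-like markers summed to 2533 and 2648, 445 and 513, 787 and 856, and 3004 and 3062 CPM.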
